A study of Mus musculus with 9 samples.

Results

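Pancreatic islets package insulin, glucagon, somatostatin and related hormones into dense-core granules, and 10 genes that build and process the content of those granules were followed here across 9 islet RNA libraries. The genes were taken by symbol from a count table of 23329 genes: the prohormone convertase genes Pcsk1 and Pcsk2, the carboxypeptidase gene Cpe, the convertase inhibitor gene Pcsk1n, the chromogranin genes Chga and Chgb, the secretogranin genes Scg2, Scg3 and Scg5, and the zinc transporter gene Slc30a8. All 10 were present and all 10 passed the filter on low counts, which kept 12402 genes. Polyadenylated RNA was taken from the islets of male mice. The labels give 4 libraries, titled as controls, the genotype Pdx1+/-, and 5 libraries, titled as mutants, the genotype Pdx1A4, an allele the labels do not describe, so neither group is labelled wild type. Age, strain and treatment are not given in the sources used here, nor whether each library comes from its own animal, so p-values measure the spread between libraries, which may be technical.

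Peptide hormones are made as longer precursors. In the maturing granule, the endoproteases encoded by Pcsk1 and Pcsk2 cut the precursor after paired basic residues, and carboxypeptidase E then trims those residues from the new ends. Scg5 encodes a chaperone that Pcsk2 protein needs to become active, and Pcsk1n encodes proSAAS, an inhibitor of the Pcsk1 enzyme. Chromogranins and secretogranins are acidic proteins that aggregate with the hormones and help to form the granule core, and Slc30a8 carries the zinc with which insulin crystallises.

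Promoter sequences are shown first because 4 of the genes share a motif in them. RefSeq promoters (build GRCm38.p6, 250 bases before to 50 after an annotated start) were found for 8 of the 10 genes, all but Cpe and Slc30a8. The palindrome TGACGTCA, the cyclic AMP response element bound by CREB and related factors, occurred in 3 of these 8 promoters and in 1.79% of all 32851 promoters of the same length. With 1 base left free, as TGACGTNA, which includes the palindrome, it occurred in 4 of 8 against 2.93% of all. The motif began 78 bases before the start in Pcsk1, 72 in Chgb, 68 in Scg2 and 44 in Chga. For Pcsk1 the window lies inside the annotated span of the gene, which begins at 75089420. Its promoter start is therefore a different one, downstream of the first base of that span. The 5 promoters below, written 5′ to 3′ in the direction of transcription, compare the 4 genes that hold the motif (in capitals) with Pcsk2, the other convertase gene, which does not.
Pcsk1 (chr13:75089607-75089906, plus strand): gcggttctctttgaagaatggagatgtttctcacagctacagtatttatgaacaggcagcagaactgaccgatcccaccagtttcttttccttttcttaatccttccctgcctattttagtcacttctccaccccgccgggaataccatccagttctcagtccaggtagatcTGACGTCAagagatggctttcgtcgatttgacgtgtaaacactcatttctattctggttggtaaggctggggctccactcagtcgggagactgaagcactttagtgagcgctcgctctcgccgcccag
Chgb (chr2:132781392-132781691, plus strand): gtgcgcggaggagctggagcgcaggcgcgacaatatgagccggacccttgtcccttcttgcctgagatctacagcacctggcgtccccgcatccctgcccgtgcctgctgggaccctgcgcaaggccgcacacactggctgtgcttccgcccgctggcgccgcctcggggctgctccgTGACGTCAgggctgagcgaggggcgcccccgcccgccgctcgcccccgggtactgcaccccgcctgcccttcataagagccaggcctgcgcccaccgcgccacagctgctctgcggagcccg
Scg2 (chr1:79439977-79440276, minus strand): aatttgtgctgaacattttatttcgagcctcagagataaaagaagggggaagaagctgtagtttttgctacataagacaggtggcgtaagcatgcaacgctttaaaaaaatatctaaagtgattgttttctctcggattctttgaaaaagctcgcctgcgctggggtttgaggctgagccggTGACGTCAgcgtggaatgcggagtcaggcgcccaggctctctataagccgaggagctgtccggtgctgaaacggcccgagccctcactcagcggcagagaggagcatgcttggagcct
Chga (chr12:102554691-102554990, plus strand): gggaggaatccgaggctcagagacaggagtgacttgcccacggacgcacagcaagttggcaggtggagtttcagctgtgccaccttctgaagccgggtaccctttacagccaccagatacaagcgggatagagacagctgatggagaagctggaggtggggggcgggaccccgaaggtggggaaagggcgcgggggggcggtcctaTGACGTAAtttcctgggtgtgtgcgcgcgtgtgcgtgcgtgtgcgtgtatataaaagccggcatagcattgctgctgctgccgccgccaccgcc
Pcsk2 (chr2:143545883-143546182, plus strand): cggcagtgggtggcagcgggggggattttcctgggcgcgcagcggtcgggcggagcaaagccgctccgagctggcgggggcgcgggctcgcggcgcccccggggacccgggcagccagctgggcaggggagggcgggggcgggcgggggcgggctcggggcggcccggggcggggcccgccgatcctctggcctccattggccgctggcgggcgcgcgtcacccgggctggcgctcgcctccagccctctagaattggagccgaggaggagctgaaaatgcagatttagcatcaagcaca
The motifs were chosen with these sequences in view, a match is a description of letters and not a shown binding site, and no match says only that the letters are not in this window. Of the other motifs searched on both strands, the clock E-box CACGTG (7.15% of all promoters) and the homeodomain core TAATTA (5.29%) occurred in 0 of the 8. TATAAA (13.6% of all) occurred in Chga alone, 5 bases after its annotated start and not before it. An NF-kB type motif (1.63% of all) occurred in Pcsk2 alone, 229 bases before its start. The Pcsk2 promoter was also the richest in G and C of the 8, at 76.3% against a median of 52.7% over all promoters, and the Pcsk1 promoter the poorest, at 49.3%.

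Libraries held 6092010 to 7375376 counts in controls and 7186462 to 9163253 in mutants. Pdx1 had 29.5 ± 5.54 CPM (counts scaled to a library size of 1e6, itself adjusted by the TMM method; SD, n = 4) in controls, against 12.9 ± 6.91 (SD, n = 5) in mutants (log2 fold change -1.18, edgeR adjusted p = 0.0461, lost without any single control or without mutant 1 or 3, up to 0.113). Mutants 2 and 3 stood apart. The 7 islet hormone genes (Gcg, Ins1, Ins2, Pyy, Ppy, Sst and Iapp), most of which encode precursors that these enzymes cut, took 19.1% ± 1.97 of control counts (SD, n = 4) and 4.70% to 7.99% in mutants 1, 4 and 5, but 0.0691% in mutant 2 and 1.21% in mutant 3. A list of 9 transcription factor genes shared by endocrine cell types (among them Neurod1, Isl1 and Insm1) summed to 1072 to 2470.5 CPM in controls, 465 to 660.2 in mutants 1, 4 and 5, 133 in mutant 3 and 13.3 in mutant 2, and 3 of the 9 fell (Rfx3, Nkx2-2 and Myt1, log2 fold changes -2.51, -2.20 and -1.87, edgeR adjusted p = 0.0114, 0.0281 and 0.0402; Nkx2-2 was lost without control 1 or 4 or mutant 3, and Myt1 without any single control or mutant 3 or 4). Control 2 gave the sum of 2470.5 CPM, and the next highest control had 1350.9. Rfx3 had 21.3, 83.1, 14.8 and 13.9 CPM in controls 1 to 4. It passed without any 1 library, with log2 fold changes from -2.77 to -1.61. Without mutant 2, 8 of the 9 passed as lower, where 13.3% of all genes did. Without mutant 3, control 1 or control 4, 1 of the 9 did, and without mutant 1, 5 did. Over all genes, 1462 of 12402 (11.8%) passed as lower in edgeR with all 9 libraries, and 699 to 1865 genes did without 1 library. The 18 acinar marker genes summed to 12294 to 20284 CPM in controls and 74306 to 197451 in mutants, with the highest sum in mutant 2. Endocrine RNA was thus lower and exocrine RNA higher in the mutant libraries. The part of that difference in the results below was not tested, and in bulk RNA fewer endocrine cells and less of a transcript per cell cannot be told apart.

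All 10 genes were lower in every mutant library than in any control. Together they made up 2.84% ± 0.523 of control counts (SD, n = 4) and 0.647% ± 0.531 of mutant counts (SD, n = 5). The shares were 1.29% in mutant 1, 0.0153% in mutant 2, 0.186% in mutant 3, 0.827% in mutant 4 and 0.916% in mutant 5. For mutant 2 the 95% Wilson interval, a measure of counting error alone, was 0.0145% to 0.0161%. Groups that lay wholly apart in this direction were found in 14.7% of all genes tested. Only Pcsk1 passed the test with all 9 libraries (edgeR's quasi-likelihood test, Benjamini-Hochberg adjusted p under 0.05 over all genes), so that 1 of 10 fell and 0 rose, where 11.8% of all genes passed as lower and 20.6% as higher (1462 and 2560 genes; 2006 and 2156 with RLE scaling, which moved the median of all genes by -0.10 on the log2 scale and still called 1 of the 10). The other 9 had log2 fold changes from -2.11 (Cpe) to -1.57 (Slc30a8), with edgeR adjusted p-values from 0.076 to 0.152, and 5 of the 10 genes had an unadjusted p under 0.05. The median log2 fold change of the 10 was -1.84, against 0.04 over all genes.

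The count turned on mutant 2. Without it, edgeR called all 10 as lower (log2 fold changes from -1.86 for Cpe to -1.31 for Slc30a8, adjusted p from 0.016 to 0.0432), where 13.3% of all genes passed as lower. Without mutants 2 and 3 together it again called all 10, with smaller values from -1.52 (Cpe) to -0.98 (Slc30a8) and adjusted p from 0.00483 to 0.0193, where 9.78% of all genes passed as lower. With all 9 libraries DESeq2 called 9 of 10, all but Slc30a8 (adjusted p = 0.0682), where 20.6% of all genes passed as lower, and limma-voom with sample weights called 6, all but Pcsk2, Chga, Scg2 and Slc30a8, where 18.5% did. With the mean level of the 9 endocrine transcription factors as a covariate, the fit called 0 of the 10 (1 at an unadjusted p under 0.05), where 0.581% of all genes passed as lower. In that fit the log2 fold change of Pcsk1 was -0.43 and those of the other 9 lay between 0.17 and 0.79, above 0 (edgeR adjusted p from 0.134 to 0.849 for the 10).

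**Figure D1:**
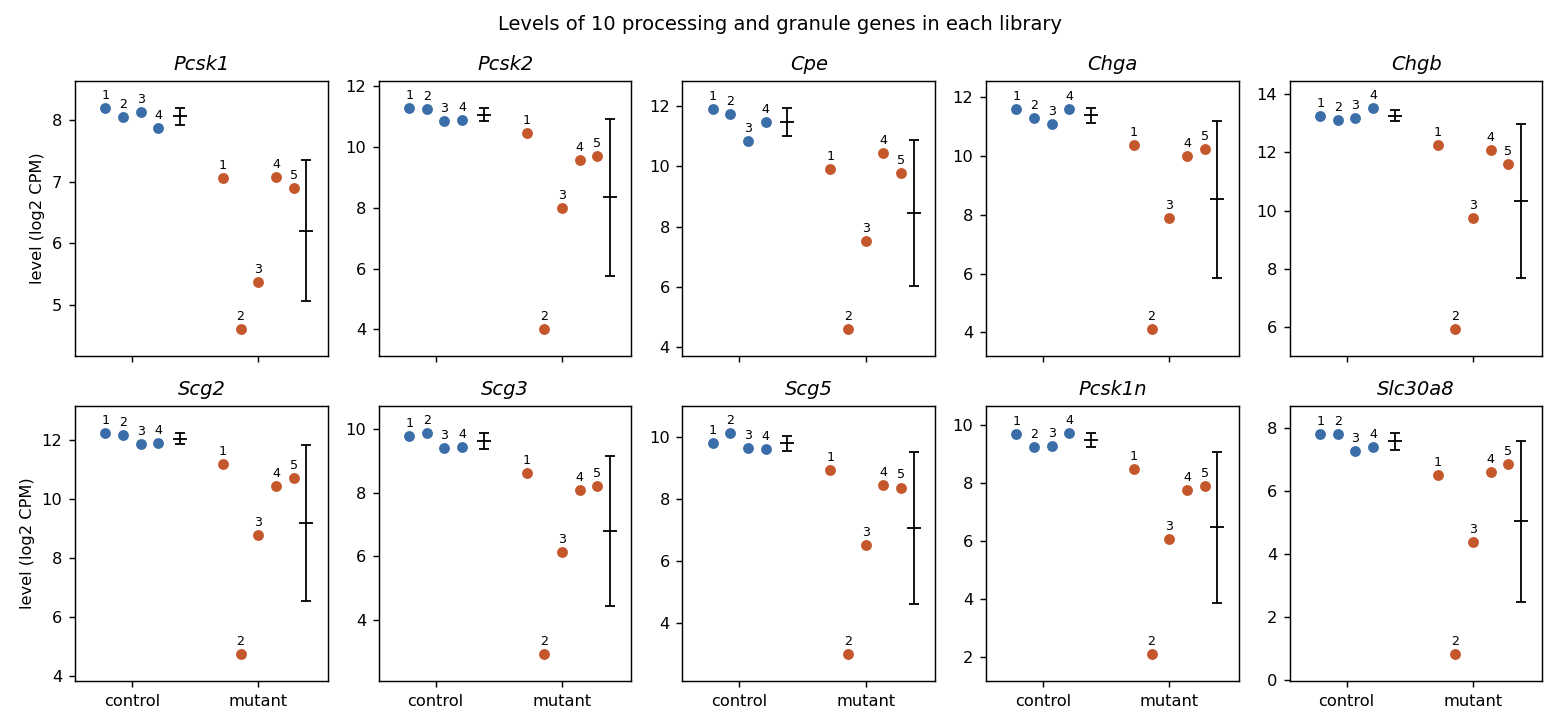
Levels of the 10 genes in each library as log2 CPM, with a panel for each gene and its own vertical scale, controls in blue and mutants in orange, numbered by library; the bar beside each group is the mean and SD (n = 4 and n = 5). In every panel the 5 mutants lie below the 4 controls, mutant 2 is lowest and mutant 3 next.

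The convertases differed in how low they reached. Pcsk1 (chromosome 13, positions 75089420 to 75134861 of GRCm38), best known for cutting proinsulin and for making the incretin GLP-1 in gut cells, had 292, 263, 281 and 234 CPM in controls 1 to 4 and 133, 24.0, 40.8, 135 and 119 CPM in mutants 1 to 5. Its log2 fold change was -1.57 (SE 0.46, edgeR adjusted p = 0.0279), a call that was lost without control 1 (-1.52, adjusted p = 0.0667) or control 3 (-1.54, adjusted p = 0.0551). Its standard error was the smallest of the 10, where the others had 0.78 to 0.86, and mutants 1, 4 and 5 lay close together, between 119 and 135 CPM.

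Pcsk2 (chromosome 2, positions 143546133 to 143816284), the convertase of proglucagon in alpha cells that also acts on proinsulin, had 2521, 2425, 1861 and 1906 CPM in controls and 1417, 15.8, 254, 768 and 830.4 CPM in mutants. Mutant 1 came closest to the controls, at 1.52-fold below their mean, and mutant 2 lay 135-fold below it. It had a log2 fold change of -1.73 (SE 0.83, edgeR adjusted p = 0.129). RefSeq places 3 noncoding genes, Pcsk2os1, Pcsk2os2 and Gm52527, over the same stretch, and since the strand used in counting is not given, reads of these could be counted with Pcsk2.

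In mutant 2 the order of the convertases turned round. Pcsk1 had 11.6, 10.9, 15.1 and 12.3 counts per 100 counts of Pcsk2 in controls 1 to 4, and 9.40, 16.1, 17.5 and 14.4 in mutants 1, 3, 4 and 5. In mutant 2 it had 152 per 100, from 178 counts of Pcsk1 and 117 of Pcsk2. Per kilobase of exon Pcsk1 was also the higher there, at 4.28 against 1.99 CPM per kilobase, where in control 1 they were 52.2 and 319. On the log2 scale, Pcsk1 minus Pcsk2 within a library was -3.02 ± 0.207 (SD, n = 4) in controls against -2.15 ± 1.57 in mutants (SD, n = 5), a difference of 0.87 that did not pass (exact two-sided permutation p = 0.349, adjusted 0.729 over 15 within-library comparisons). Without mutants 2 and 3 the difference was 0.11.

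Cpe (chromosome 8, positions 64592542 to 64693109), the exopeptidase of the pathway, had the lowest fold change of the 10. Its levels were 3862, 3389.9, 1846 and 2819.9 CPM in controls and 971, 24.0, 186, 1395 and 884 CPM in mutants. Its log2 fold change was -2.11 (SE 0.84, edgeR adjusted p = 0.076), and -1.86 without mutant 2 (adjusted p = 0.0256). Control 3 was the lowest control, and mutants 1 and 3 lay below mutants 4 and 5 when set against Pcsk2. Cpe minus Pcsk2 was 0.62, 0.48, -0.01 and 0.57 in controls and -0.55, 0.60, -0.45, 0.86 and 0.09 in mutants, so that mutants 1 and 3 lay below every control and mutant 4 above (difference -0.30, exact two-sided permutation p = 0.389, adjusted 0.729).

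Scg5 (chromosome 2, positions 113776313 to 113829091), the chaperone gene, was measured against its enzyme. Scg5 minus Pcsk2 was -1.28 ± 0.157 (SD, n = 4) in controls against -1.30 ± 0.224 in mutants (SD, n = 5), a difference of -0.02 (exact two-sided permutation p = 0.897, adjusted 0.960). In mutant 2 it was -1.01, just above the control range of -1.49 to -1.11. Its own levels were 898, 1122, 789 and 784 CPM in controls and 487, 7.68, 91.6, 352 and 329.7 CPM in mutants. Pcsk1n (chromosome X, positions 7919822 to 7924410), the inhibitor gene, had 825, 609, 622 and 837 CPM in controls and 355, 4.04, 67.7, 219 and 241 CPM in mutants. In mutant 2 it lay 166-fold below the control mean, the farthest of the 10 genes, on 30 counts.

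The inhibitor was then set against its enzyme. Pcsk1n had 282, 231, 221 and 358 counts per 100 of Pcsk1 in controls, 267, 166, 163 and 202 in mutants 1, 3, 4 and 5, and 16.9 in mutant 2. The log2 difference Pcsk1n minus Pcsk1 was lower than in any control in 4 of 5 mutants, the exception being mutant 1. Its mean was 1.42 ± 0.318 (SD, n = 4) in controls against 0.27 ± 1.57 in mutants (SD, n = 5), a difference of -1.15 that did not pass (exact two-sided permutation p = 0.111, adjusted 0.429). RefSeq places the gene Eras over part of Pcsk1n, so reads of it could be counted with Pcsk1n.

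Chgb (chromosome 2, positions 132781642 to 132795079), a chromogranin, was the most abundant of the 10 per kilobase. It had 9566, 8734, 9107 and 11776 CPM in controls and 4877, 61.1, 866, 4309 and 3093 CPM in mutants. Chga (chromosome 12, positions 102554941 to 102565027), the precursor of regulatory peptides such as pancreastatin, had 3108, 2466, 2154 and 3059 CPM in controls and 1317, 17.0, 238, 1009.7 and 1206 CPM in mutants. Mutant 1 was the highest mutant for both genes, and mutants 4 and 5 took opposite order in them. Their log2 fold changes were -1.89 and -1.83, with standard errors of 0.86 and 0.85 (edgeR adjusted p = 0.11 and 0.117). The difference Chga minus Chgb was -1.87 ± 0.194 (SD, n = 4) in controls against -1.81 ± 0.271 in mutants (SD, n = 5; exact two-sided permutation p = 0.730, adjusted 0.913).

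Scg2 (chromosome 1, positions 79434366 to 79440026), the precursor of secretoneurin, had 4898, 4603, 3759 and 3852 CPM in controls and 2353, 26.4, 441, 1406 and 1694 CPM in mutants. Scg3 (chromosome 9, positions 75643366 to 75685959), which binds chromogranin A and cholesterol-rich granule membrane, had 873, 936, 677 and 682 CPM in controls and 391, 7.41, 70.8, 269.8 and 295 CPM in mutants. For both, mutant 1 was the highest mutant, and every mutant lay below the lowest control. The log2 fold changes of Scg2, Scg3 and Scg5 were -1.85, -1.94 and -1.83, with standard errors of 0.84, 0.78 and 0.80 (edgeR adjusted p = 0.111, 0.0792 and 0.0995).

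Slc30a8 (chromosome 15, positions 52295553 to 52335798), whose protein loads zinc into insulin granules, was the gene of smallest fold change with Pcsk1. Its levels were 224, 227, 156 and 168 CPM in controls and 91.2, 1.48, 20.5, 98.2 and 116 CPM in mutants, the mutant 2 value resting on 11 counts. The fold change on the log2 scale was -1.57 (SE 0.80, edgeR adjusted p = 0.152). In mutant 5 it lay 1.65-fold and in mutant 4 1.95-fold below the control mean, the nearest of the 10 genes in both libraries.

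The genes were then set against the hormones. Together the 10 genes had 15.4, 11.3, 13.7 and 19.6 counts per 100 hormone counts in controls, and 16.1, 22.1, 15.3, 17.6 and 12.6 in mutants 1 to 5, so the groups overlapped. None of the 7 hormone genes passed in edgeR with all 9 libraries (1 had an unadjusted p under 0.05, and DESeq2 called 6), while 6 passed as lower without mutant 2 and 7 of 7 without mutants 2 and 3. Over all genes, 11.8% passed as lower in edgeR and 20.6% in DESeq2 with all 9 libraries. In edgeR the share was 13.3% without mutant 2 and 9.78% without mutants 2 and 3. The hormone genes lay on average 2.26-fold, 189-fold, 11.5-fold, 2.69-fold and 2.49-fold below the control mean in mutants 1 to 5, and the median of the 10 genes 2.00-fold, 126-fold, 10.1-fold, 2.58-fold and 2.63-fold below it. In mutant 2, 9 of the 10 genes lay between 102-fold (Scg3) and 166-fold (Pcsk1n) below their control mean, and Pcsk1 lay 11.0-fold below. Pcsk1 was not alone in its smaller fall there, though the hormone genes lay 189-fold below on average. Pdx1 lay 6.61-fold below its control mean in mutant 2. Pam, a processing enzyme gene, had 19.0 CPM in mutant 2 against a control mean of 268, and Ptprn2, a granule membrane gene, 5.80 against 58.1. Other genes of the granule biogenesis list fell much farther there. Ptprn had 0.404 CPM against a control mean of 133, and Syt4 0.944 against 666, both named after their values were seen. Pcsk1 was also the nearest to controls in mutant 3, at 6.50-fold, where the others ranged from 8.48-fold (Pcsk2) to 15.4-fold (Cpe).

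**Figure D2:**
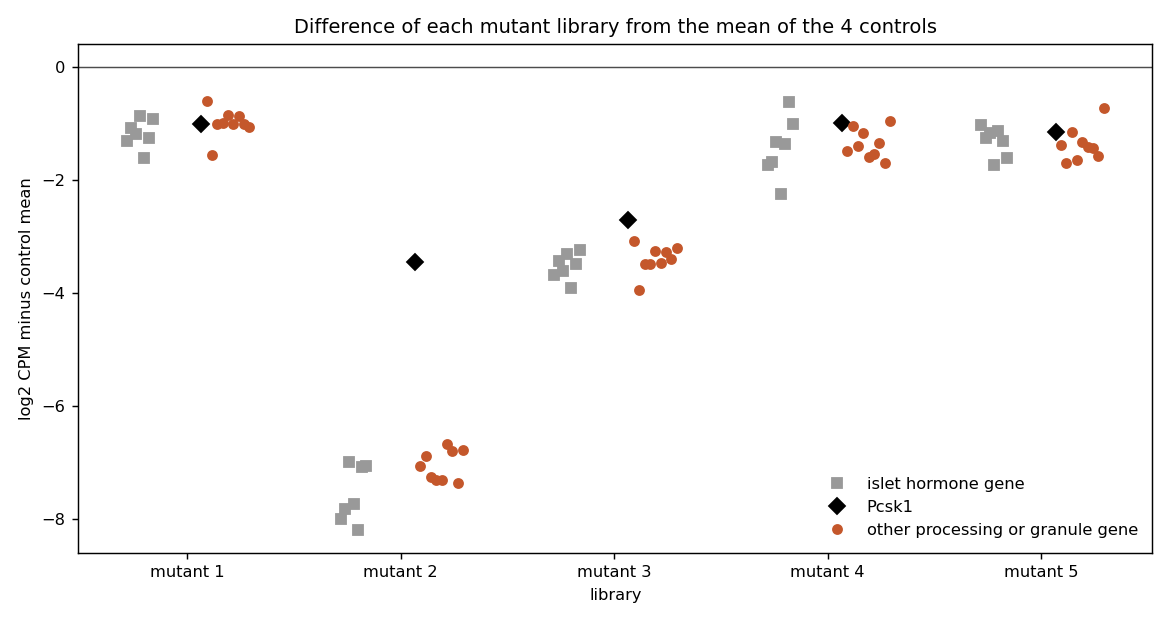
Each mutant library's log2 CPM minus the mean of the 4 controls, for the 7 hormone genes (grey squares), Pcsk1 (black diamonds) and the other 9 genes (orange circles). Both sets lie far lower in mutants 2 and 3 than in the other mutants, and in mutant 2 Pcsk1 lies at -3.46 while the other 9 lie at or below -6.67.

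Each gene was then compared with the hormones within a library, as its log2 CPM minus the mean log2 CPM of the 7 hormone genes, so that library scaling drops out. In the mutants the hormone genes lay on average 2.26-fold to 189-fold below controls. A gene of steady level would therefore also rise on this measure. The share of all genes that lay above every control on it was not counted. Of the 10 genes 0 passed adjustment over the 15 within-library comparisons, and 1 of the 15, Slc30a8, had an unadjusted exact p under 0.05. With 126 splits of 9 libraries the smallest exact p is 0.00794, which adjusted alone over 15 comparisons gives 0.119, so a single gene could not have passed. Slc30a8 was 0.46 higher in mutants relative to the hormones (exact two-sided permutation p = 0.0317, adjusted 0.429), at -5.93, -5.25, -5.72, -5.57 and -5.44 in mutants 1 to 5 and -5.83, -6.05, -6.27 and -6.00 in controls, above every control in 4 of 5 mutants. Against the mean of the 9 endocrine transcription factors instead, that difference was 0.10 (exact two-sided permutation adjusted p = 0.897).

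Pcsk1 was above every control relative to the hormones in 5 of 5 mutants, where the share of all genes that were so was not counted. Its values were -5.45, -5.83, -5.43 and -5.53 in controls and -5.38, -1.46, -4.73, -5.12 and -5.40 in mutants, so that mutants 1 and 5 were barely above the highest control. The mean difference of 1.14 did not pass (exact two-sided permutation p = 0.127, adjusted 0.429), and was 0.26 without mutants 2 and 3. For the other 8 genes the difference lay between -0.03 (Cpe) and 0.28 (Pcsk2), with exact permutation p-values from 0.135 to 0.960 before adjustment. For Pcsk2 the values were -1.98, -2.05 and -2.10 in mutants 1 to 3, above every control, and -2.61 and -2.60 in mutants 4 and 5, within the control range of -2.70 to -2.34. For Scg5 they were -3.52, -3.07, -3.57, -3.74 and -3.94 in mutants 1 to 5, where 4 of 5 lay above every control, mutant 4 barely so (difference 0.26, exact two-sided permutation p = 0.135, adjusted 0.429). Scg2 lay above every control in mutants 1 to 3 and below every control in mutant 4, with a difference of 0.13 (exact two-sided permutation p = 0.325, adjusted 0.729).

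**Figure D3:**
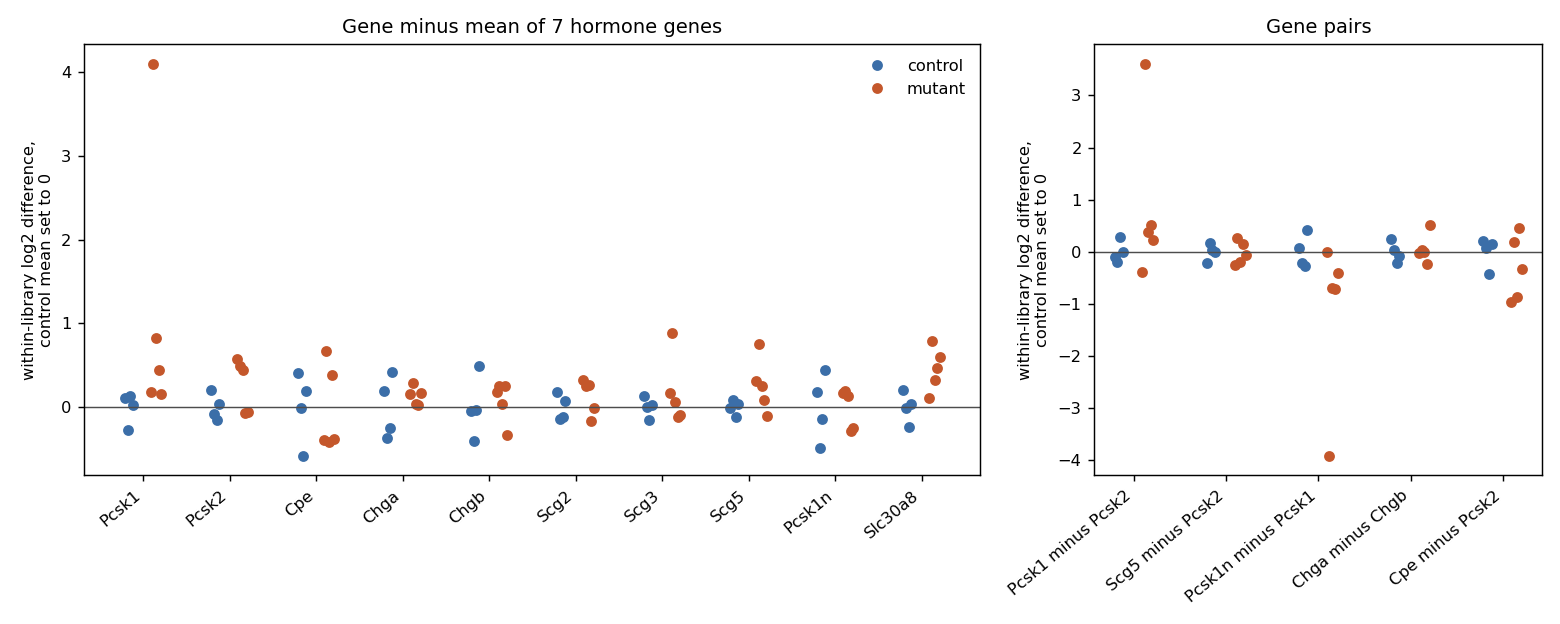
Within-library log2 differences with the control mean set to 0, for each gene minus the mean of the 7 hormone genes (left) and for 5 gene pairs (right), a point for each library. Most points lie within 1 of 0; mutant 2 stands apart in the 3 columns that hold Pcsk1 and, less far, in Scg3, where its value minus the hormone mean was -3.12 against -4.12 to -3.84 in the other mutants.

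Levels were also ordered per kilobase of annotated exon (GENCODE M21, all exons of a gene joined, so a long alternative exon lowers the value). In controls the order was Chgb at 3575 ± 498 CPM per kilobase, Scg2 at 1701 ± 223, Cpe at 1142 ± 333, Chga at 979 ± 169, Scg5 at 573 ± 101, Pcsk1n at 329.7 ± 56.8, Scg3 at 289 ± 48.4, Pcsk2 at 275 ± 43.4, Slc30a8 at 98.4 ± 18.8 and Pcsk1 at 47.8 ± 4.58 (SD, n = 4 for each). Cpe and Chga overlapped, and so did Pcsk1n, Scg3 and Pcsk2, while the other neighbours in this order had separate ranges. Pcsk1 was the least abundant of the 10 per kilobase in all 4 controls and in mutants 1, 3, 4 and 5. In mutant 2, at 4.28 CPM per kilobase, it ranked 6, above Scg3 (2.71), Pcsk2 (1.99), Pcsk1n (1.84) and Slc30a8 (0.752).

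Marker sums of neuronal, chromaffin, enteroendocrine and Schwann cells were low in mutant 2, though few genes made up some of them. The 8 neuronal markers summed to 59.3 to 109.6 CPM in controls and 0.674 to 42.9 in mutants, with the lowest sum in mutant 2, where 5 were at 0, and Chat at 0 in all libraries. Elavl4 alone gave 56.6, 89.3, 38.9 and 41.8 CPM of that sum in controls 1 to 4, and 0.404 CPM in mutant 2. Nefl went the other way, at 0 in all controls and with 1 count in mutant 2. The 4 chromaffin cell markers summed to 27.8 to 45.8 CPM in controls and 3.50 CPM in mutant 2, with Dbh and Pnmt at 0 in all libraries. Slc18a1 and Th thus made up the whole of that sum. The 6 enteroendocrine markers summed to 3.01 to 6.15 CPM in controls and were all at 0 in mutant 2. The 6 Schwann cell markers summed to 6.68 to 10.5 CPM in controls and 0.944 CPM in mutant 2. Which cells gave the Pcsk1 counts of mutant 2 was not tested.

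**Figure D4:**
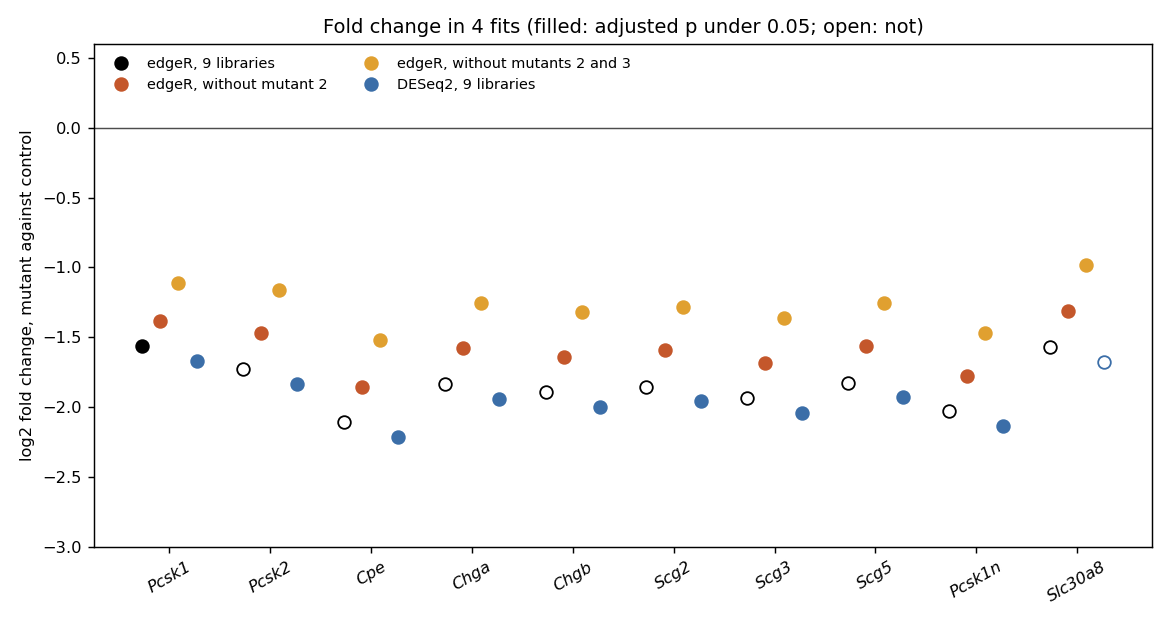
Log2 fold change of each gene in 4 fits: edgeR with 9 libraries (black), without mutant 2 (orange) and without mutants 2 and 3 (yellow), and DESeq2 with 9 libraries (blue), where a filled point has an adjusted p under 0.05. All values lie below 0; with all 9 libraries edgeR fills Pcsk1 alone, and both fits without mutant 2 fill all 10.

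Other precursors and enzymes of the pathway did not all share this direction. Among 17 other prohormone genes, of which 10 were tested, 5 fell and 1 rose (median log2 fold change -1.96). For these lists too, the shares over all genes tested were 11.8% lower and 20.6% higher, with a median of 0.04. Cartpt, the precursor of the neuropeptide CART, had 13.2 ± 5.02 CPM (SD, n = 4) in controls against 0.678 ± 0.421 in mutants (SD, n = 5; log2 fold change -4.24, edgeR adjusted p = 0.00185). Vgf, a granin-like precursor, had 2.43 ± 0.411 and 0.357 ± 0.23 CPM (-2.72, adjusted p = 0.00656), on 4 or fewer counts in each mutant. Penk, proenkephalin, had 2.05, 1.76, 8.67 and 12.5 CPM in controls and 2.42, 0.404, 0.607, 0.439 and 0.535 CPM in mutants, so the groups overlapped. Its call (log2 fold change -2.78, edgeR adjusted p = 0.02) was lost without control 4 (adjusted p = 0.0604) and without mutants 2 and 3 (adjusted p = 0.0721). The one that rose was Npy, neuropeptide Y, which had 3.28, 5.12, 10.7 and 6.37 CPM in controls and 54.0, 77.6, 76.6, 131 and 14.9 CPM in mutants (log2 fold change 3.47, edgeR adjusted p = 0.00387). Its lowest mutant, mutant 5, was still above the highest control. Without control 1, 2 or 4, or without mutant 3, the number that fell was 3.

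Of 17 other processing enzymes 15 were tested, of which 3 fell and 1 rose (median log2 fold change -0.32), beside 11.8% and 20.6% of all genes. Pam, which amidates peptide ends in the granule, had 216, 488, 160.1 and 209.6 CPM in controls and 77.5, 19.0, 37.0, 58.5 and 68.5 CPM in mutants. Every mutant lay below every control (log2 fold change -2.36, edgeR adjusted p = 0.00525). Cpd, a carboxypeptidase of the trans-Golgi, fell by 0.49 on the log2 scale (edgeR adjusted p = 0.0134), and Qpct, which forms pyroglutamate ends, by 0.90 (adjusted p = 0.0497), a call lost without any of 6 libraries (controls 1, 3 and 4 and mutants 2, 3 and 5; highest adjusted p = 0.143). Ctsl, the lysosomal protease cathepsin L, had 590.5 ± 84.4 CPM in controls (SD, n = 4) and rose to 2961 ± 993 CPM (SD, n = 5; log2 fold change 2.33, edgeR adjusted p = 0.00172). The acinar marker sum was higher in the same libraries, and its part in the rise of Ctsl was not tested.

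Of 16 granule biogenesis genes 5 fell and 1 rose (median log2 fold change -0.43), beside 11.8% and 20.6% of all genes. Ptprn2, a granule membrane protein, fell by 1.75 on the log2 scale (edgeR adjusted p = 0.0117), while Ica1 and Arfip1, which act at the Golgi where granules bud, fell by 0.61 and 0.61 (adjusted p = 0.00784 and 0.0135). Rab26, a small GTPase of secretory granules, was the one that rose (log2 fold change 1.84, edgeR adjusted p = 0.00841), from 1.30 ± 0.692 CPM (SD, n = 4) to 4.76 ± 0.783 (SD, n = 5). Without mutant 2 edgeR called 8 of these genes as lower, and without control 1 or control 3 it called 3. It called 2 as higher without control 4 or mutant 1.

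The proton pump that acidifies the granule gave 5 falls and 2 rises among 20 tested of 26 genes (median log2 fold change -0.40), beside 11.8% lower and 20.6% higher over all genes. Clcn3, a chloride exchanger, fell by 0.81 on the log2 scale (edgeR adjusted p = 0.00645) and the accessory subunit gene Atp6ap2 by 0.83 (adjusted p = 0.0115). The subunit gene Atp6v1b2 fell by 0.83 (adjusted p = 0.026), a call lost without any of 4 libraries (controls 1 and 4, mutants 3 and 5; highest adjusted p = 0.0725). Tcirg1, a subunit best known from osteoclasts, rose by 1.40 (edgeR adjusted p = 0.00925), from 7.78 ± 3.29 CPM (SD, n = 4) to 20.6 ± 6.04 (SD, n = 5), and Atp6v0a2 by 0.52 (adjusted p = 0.0359), a call lost without any library but control 3 (highest adjusted p = 0.11). The number that fell ranged from 2 to 8 over the fits that left out a library, at its lowest near the share over all genes, moving by over 1.5-fold without controls 1, 3 or 4 or mutants 1, 3 or 5, and the number that rose was 1 without any library but control 3.

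Zinc genes other than Slc30a8 gave 4 falls and 6 rises among 22 tested of 26 (median log2 fold change 0.09), near the shares over all genes of 11.8% lower and 20.6% higher. Slc30a9 and the zinc-sensing factor gene Mtf1 fell by 0.70 and 0.70 on the log2 scale (edgeR adjusted p = 0.00346 and 0.0115), and Slc30a5, a zinc transporter of the early secretory pathway, fell by 0.47 (adjusted p = 0.0447), a call lost without controls 1 or 4 or mutants 1, 3 or 5 (highest adjusted p = 0.129). Slc39a8, a zinc importer, had 19.6 ± 7.13 CPM in controls (SD, n = 4) and rose to 131 ± 60.3 CPM (SD, n = 5; log2 fold change 2.73, edgeR adjusted p = 0.00244). Slc30a2, a transporter of exocrine zymogen and milk-secreting cells, rose by 2.69 (edgeR adjusted p = 0.00615) and Slc39a5 by 3.61 (adjusted p = 0.0153), the latter from 0.172 ± 0.198 CPM in controls (SD, n = 4), on 3 or fewer counts in each. Slc39a8 and Slc30a2 were highest in mutants 2 and 3, where hormone counts were fewest. The number that rose was 3 without mutant 2, 2 without mutant 3, 3 without mutant 4 and 3 without mutants 2 and 3 together. The number that fell was 2 without control 1 or 4, without mutant 3 or 5, or without mutants 2 and 3 together.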

How the data were processed

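Polyadenylated RNA of 9 islet libraries (4 control, 5 mutant, grouped by sample title) was measured. The authors deposited whole-number counts per gene symbol, without normalization per the file headers and values. The submitters' processing notes name mm10, STAR, RSEM, Bowtie2, HOMER, Cell Ranger, Seurat, Signac, DESeq2 and R 4.1.0 without roles, and the sources used here do not give which of these made the counts or whether counting used strand. Libraries came from a low-input NEBNext protocol per the labels' protocols.

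Mutant was compared with control by edgeR 4.0.16 (R 4.3.3) after filterByExpr (12402 of 23329 genes) and TMM scaling, with a two-sided quasi-likelihood test adjusted over all genes (Benjamini-Hochberg, threshold 0.05). Log2 CPM used a prior count of 2. Within-library differences, for 10 genes against the hormones and 5 pairs, were tested by exact two-sided permutation of the libraries. No libraries of a group were copies within sampling noise. The alternatives tried were RLE scaling, TMM computed without hormone genes, other filters, DESeq2 1.42.0, limma-voom (limma 3.58.1), score covariates, a replicate block and libraries left out. Promoters came from RefSeq GRCm38.p6, and 3 of 201 list entries were matched by an older symbol.

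Text names the 10 genes, the hormones, Pdx1 and up to 3 genes of lowest p per list and direction among those past the threshold. Neurod1, Isl1, Insm1 and markers at 0 only describe lists. Elavl4, Nefl, Slc18a1, Th, Ptprn and Syt4 were named after their values were seen. The members and lists were chosen with earlier results of these data known. On simulated data for this comparison (12118 genes), 19.0% of 100 genes changed 2-fold and 76.0% of 100 changed 4-fold were recovered, and 1.04% of calls were unchanged genes.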

Additional observations from a re-analysis of the deposited data

Results flagged for a closer look

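Of the 50 sets of 4 controls or 5 mutants that were examined, 4 held a library farther from the others than 95% of groups of this size would place it. Over the 50 sets chance gives about 5%. All 4 were sets of mutants, and the library was mutant 2 in each. Pcsk1 minus the hormone mean was -1.46 there and -5.40 to -4.73 in the other mutants. Pcsk1 minus Pcsk2 was 0.60 there and -3.41 to -2.51 in the others. Pcsk1n minus Pcsk1 was -2.49 there and 0.70 to 1.41 in the others, and Scg3 minus the hormone mean was -3.12 there and -4.12 to -3.84 in the others. The first 3 share Pcsk1 and so are not independent of each other.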

How the results depend on the processing

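The log2 fold changes of the 10 genes kept their direction under other scalings, filters and tools and without any 1 library. Of all genes tested, genes higher in mutants and genes lower in mutants numbered 2560 and 1462, against 2555 lower with DESeq2 and 2294 lower with limma-voom, 492 and 72 with the endocrine factor covariate, and 1658 and 774 with the replicate block. They numbered 0 and 0 with the acinar covariate by edgeR (236 and 139 at an unadjusted p under 0.05), a score of which the group explained 94.4%, and 1355 higher without mutants 2 and 3. Leaving out 1 library gave 1579 to 2702 higher and 699 to 1865 lower, the counts moving most without control 1 (1678 and 699) and mutant 3 (1579 and 900). Of the 10 genes, 1 was called lower, against 9 with DESeq2, 6 with limma-voom, 10 without mutants 2 and 3, 0 with either covariate by edgeR (1 and 0 at an unadjusted p under 0.05) and 0 to 10 without 1 library (0 without control 1 or 3, 10 without mutant 2). The cause was not tested. With the endocrine covariate the log2 fold change turned to 0.59 for Pcsk2, 0.17 for Cpe, 0.47 for Chga, 0.36 for Chgb, 0.50 for Scg2, 0.23 for Scg3, 0.42 for Scg5, 0.19 for Pcsk1n, 0.79 for Slc30a8, 0.55 for Ins1, 0.59 for Ins2, 0.42 for Iapp, 0.34 for Gcg, 0.50 for Sst, 0.61 for Ppy and 0.54 for Pyy. With the acinar covariate it turned to 0.18 for Pcsk1, 2.02 for Pcsk2, 1.83 for Chga, 0.63 for Chgb, 1.86 for Scg2, 1.37 for Scg3, 1.11 for Scg5, 1.77 for Pcsk1n, 1.28 for Slc30a8, 1.77 for Ins1, 1.47 for Ins2, 0.92 for Iapp, 2.12 for Gcg, 0.39 for Sst, 0.31 for Pyy and 0.82 for Pdx1. It also turned to 1.42 for Penk, -1.45 for Npy, -0.67 for Ctsl, 0.16 for Ptprn2, 0.21 for Arfip1, 0.28 for Atp6ap2, 1.05 for Atp6v1b2, 0.33 for Mtf1, -1.01 for Slc39a8, -0.17 for Slc30a2, 2.19 for Nkx2-2 and 2.35 for Myt1.

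Differences from the hormone mean turned, against the endocrine factor mean, to -0.084 for Pcsk2, -0.22 for Chga, -0.28 for Chgb, -0.23 for Scg2, -0.18 for Scg3 and -0.10 for Scg5. The mutant minus control difference in Scg3 minus the hormone mean was -0.011 without mutants 2 and 3, and that in Pcsk1n minus the hormone CPM sum (log2) was 0.0025. Without 1 library, the mutant minus control difference in Cpe minus the hormone mean ranged from -0.22 to 0.11, in Chgb from -0.060 to 0.24 and in Pcsk1n from -0.17 to 0.14. That in Scg5 minus Pcsk2 ranged from -0.087 to 0.045 and that in Chga minus Chgb from -0.051 to 0.14. Same-numbered libraries deviated with correlations of 0.05, -0.02, 0.18 and -0.05, and not every library correlated best with its own number. No pairing by number was seen, but the wide differences among mutants could hide one, so pairing is not excluded. With the replicate block the smallest possible within-pair p is 0.125 and nothing could pass. There the mutant minus control difference was 0.061 in Cpe minus the hormone mean, 0.051 in Pcsk1n minus it and -0.051 in Chga minus Chgb. Depth limits Slc30a8 in mutant 2 (11 counts) and Pcsk1n (30 counts).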
